A study of Homo sapiens with 4 samples.

Results

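IL11 and its relatives in the IL-6 family are described here in HK-2 cells, immortalised cells of the human proximal tubule, with PRCC-TFE3 switched on or left off. The 9 members are 4 cytokines (IL11, IL6, LIF and CLCF1) and 5 receptor chains (IL6ST, OSMR, LIFR, IL11RA and IL6R), taken from 34080 genes with a summed read count, of which 13569 passed the low-count filter. All 9 members passed it. IL11 was chosen by its measured log2 fold change between Doxy(+) and Doxy(-), and the others for belonging to the same family with the results of the series known. The comparison of Doxy(+) with Doxy(-) is therefore a description for these 9 genes and carries no p-value, and only the other genes of the pathway were tested.

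Each group had 2 libraries of polyadenylated RNA, numbered 1 and 2. Both groups carried the HA-PRCC-TFE3 transgene under a Tet-On system and were grown for 24 h in the same low-serum medium, Doxy(+) with 0.2 microg/ml doxycycline and Doxy(-) with none. Nothing in the labels says that libraries 1 and 2 of a group came from separate cultures, so the spread between them may be technical. HK-2 cells without the transgene were not analysed here, and an effect of doxycycline cannot be told apart from an effect of the fusion protein. In bulk RNA of this kind, fewer cells that express a gene cannot be told apart from less RNA per cell.

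Cytokines of the IL-6 family share the signal-transducing chain gp130, which is encoded by IL6ST. IL-6 and IL-11 first bind their own alpha receptors, IL6R and IL11RA, and then bring gp130 chains together. LIF signals through gp130 paired with LIFR, and CLCF1 uses the same pair together with the alpha receptor CNTFR. Oncostatin M can use gp130 paired with OSMR or LIFR. The chains activate JAK kinases, which phosphorylate STAT3, and STAT3 in turn induces its own inhibitor SOCS3. In the kidney, tubule cells are a known source of IL-6, LIF and IL-11 after injury.

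The libraries held between 14042545 and 16618401 estimated reads, and between 12654233 and 15012743 of these lay on matched genes. TFE3, which checks the induction, stood at 66.9 and 69.1 CPM (reads scaled to a library of 1000000) in Doxy(-) against 367 and 322 CPM in Doxy(+). Of 11 markers of proximal tubule, 7 stayed under 1 CPM in every library. SLC22A6 and SLC22A8 were at 0 and LRP2 and AQP1 did not exceed 0.08 CPM. GGT1 stood at 68.7 and 69.4 CPM in Doxy(-) against 78.1 and 86.0 CPM in Doxy(+). Of the 5 tubule markers tested, 1 was higher and 0 lower, against 9.76% and 9.53% of all genes tested. Epithelial markers were present and summed to 1960 and 1950 CPM in Doxy(-) against 1698 and 1723 CPM in Doxy(+), with 3 of the 6 tested lower and 0 higher, against 9.53% and 9.76% of all genes tested. Of the same list, PAX8 stood at 565 and 573 CPM against 584 and 605 CPM, and CDH1 stayed under 1 CPM in every library. The leukocyte list summed to 144 and 150 CPM against 191 and 190 CPM, nearly all of it CD68, which also encodes a lysosomal membrane protein, and CD3E was at 0. Stromal markers summed to 186 and 196 CPM against 204 and 202 CPM, mostly LUM, which did not pass, while COL1A1 was lower (22.3 and 20.2 CPM against 16.7 and 15.5 CPM) and COL3A1 was at 0, and the 4 endothelial markers stayed under 1 CPM. The part of these shifts in the values that follow was not tested.

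Sequence upstream of the RefSeq start site is shown for IL11 and IL6, the cytokines with the largest differences between the groups, on the strand of the gene. The letters come from RefSeq on GRCh38.p14 and leave out bases that lie in an annotated exon. The stretch of IL11 runs up to its start site, whereas in IL6 the last 53 bases before the start site lie in the first exon of other transcripts and are not shown. A longer IL6 transcript begins further upstream, so that the IL6 stretch lies in an intron of that transcript and inside the gene's annotated span. Capitals mark TGAGTCA, a match to the AP-1 motif, in IL11 and GGATTTTCC, a match to the NF-kB motif, in IL6. The stretch of IL11 is 250 bases long (chr19:55370464-55370713, minus strand) and that of IL6 is 197 bases long (chr7:22726950-22727146, plus strand).
IL11: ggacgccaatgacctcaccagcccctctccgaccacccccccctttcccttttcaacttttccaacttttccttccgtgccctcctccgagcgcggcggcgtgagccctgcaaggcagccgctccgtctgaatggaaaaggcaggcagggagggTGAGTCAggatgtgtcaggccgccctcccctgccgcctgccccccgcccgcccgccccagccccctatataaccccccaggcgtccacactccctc
IL6: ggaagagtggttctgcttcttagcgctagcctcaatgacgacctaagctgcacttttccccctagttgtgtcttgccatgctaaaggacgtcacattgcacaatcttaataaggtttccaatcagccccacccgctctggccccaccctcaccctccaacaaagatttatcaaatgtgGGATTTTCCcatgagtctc

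Windows of 300 bases, from 250 before to 50 after a start site, were at hand for 7 of the 9 members, with 10 windows in all because LIFR and IL11RA have several. Both strands were searched for CACGTG (the E-box that MiT/TFE factors bind), TGANTCA (AP-1), GGAATG (TEAD), TTCNNNGAA (STAT) and GGANTTTCC (NF-kB), the last of which was added after the other matches had been seen. The NF-kB letters leave out the first G of the longer form that was searched at first, which matched fewer of all windows. They were not shortened for a biological reason, and their match is given as a description only. The AP-1 letters were in 3 of the 10 windows, against 7.71% of 35116 windows of all genes. In IL11 the match began 96 bases before the start site. In OSMR and IL6R it lay after the start site, and these are shown beside IL11 with the match in capitals.
IL11: gcagggagggTGAGTCAggatgtgtca
OSMR: gccccgcagcTGATTCAtagccccggc
IL6R: tccgccgctcTGAGTCAtgtgcg
The stretches are chr19:55370543-55370569 on the minus strand, and chr5:38846005-38846031 and chr1:154405370-154405392 on the plus strand. These 3 members did not share a direction in the values below, since IL11 was lower in Doxy(+), IL6R was higher and OSMR overlapped. CACGTG was in 0 of the 10 windows, against 7.26% of all windows. GGAATG was in 1 window and TTCNNNGAA in 2, all of LIFR, against 14.03% and 7.66% of all windows, and the NF-kB letters were in the IL6 window alone, against 1.64%. A match is a string of letters and not a bound site, and no binding data were used here.

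First, the cytokines were examined. All 4 stood lower in both Doxy(+) libraries than in both Doxy(-) libraries, a pattern shown by 30% of all genes tested, and IL11 stood furthest apart. IL11 (ENSG00000095752.7, chromosome 19, 55364382 to 55370463, minus strand), a cytokine known for its part in fibrosis and in platelet formation, was measured at 18.5 and 20.8 CPM in Doxy(-) against 3.495 and 4.92 CPM in Doxy(+). These rest on 239 and 306 estimated reads against 45.1 and 65.8. The level in Doxy(+) was 21.4% of that in Doxy(-), a log2 fold change of -2.22 (SE 0.176, n = 2 each). Leaving out Doxy(+) 2, the higher of the induced libraries, gave -2.49.

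IL6 (ENSG00000136244.12, chromosome 7, 22725884 to 22732002, plus strand), the founding cytokine of the family and an inducer of the acute phase response, stood at 232 and 240 CPM in Doxy(-) against 158 and 146 CPM in Doxy(+). The fitted log2 fold change was -0.63 (SE 0.048), and the ranges lay well apart relative to the spread within each group. Exons of IL6 overlap those of STEAP1B on the other strand, which averaged 16.3 CPM, and whether the counting used the strand is not given in the sources used here.

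LIF (ENSG00000128342.5, chromosome 22, 30240453 to 30246759, minus strand), named for its effect on myeloid leukaemia cells, was almost the same in both Doxy(-) libraries, at 219.7 and 219.9 CPM, and came to 156 and 163 CPM in Doxy(+). The log2 fold change was -0.46 (SE 0.0382). CLCF1 (ENSG00000175505.11, chromosome 11, 67364168 to 67374177, minus strand) is a B cell stimulating cytokine that acts through CNTFR, LIFR and gp130. It stood at 15.1 and 13.3 CPM in Doxy(-) against 11.3 and 11.02 CPM in Doxy(+), with a log2 fold change of -0.35 (SE 0.117). CLCF1 thus had the smallest difference of the 4 cytokines and the largest SE after IL11. DESeq2 gave the same log2 fold change for CLCF1 with an SE of 0.247. It rested on 195 and 196 estimated reads in Doxy(-) against 146 and 148 in Doxy(+). Over the 13 settings the log2 fold change ran from -2.49 to -2.00 for IL11 and from -0.69 to -0.58 for IL6. For LIF it ran from -0.49 to -0.41, and for CLCF1 from -0.44 to -0.26. All settings reuse the same libraries, whose groups did not overlap, so the unchanged sign is no further support.

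Among the 5 receptor chains, both Doxy(+) libraries lay above both Doxy(-) libraries for 2, IL6ST and IL6R, and a gap in that direction was seen in 31.1% of all genes tested. The ranges of the other 3, OSMR, LIFR and IL11RA, overlapped. IL6ST (ENSG00000134352.21, chromosome 5, 55935095 to 55995022, minus strand) was measured at 114 and 124 CPM in Doxy(-) against 143 and 150 CPM in Doxy(+), a log2 fold change of 0.30 (SE 0.0551). IL6R (ENSG00000160712.13, chromosome 1, 154405193 to 154469450, plus strand), the alpha chain for IL-6, stood at 53.9 and 51.9 CPM in Doxy(-) against 69.0 and 67.4 CPM in Doxy(+), a log2 fold change of 0.37 (SE 0.0546). IL6 and its alpha receptor therefore lay on opposite sides of 0.

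OSMR (ENSG00000145623.13, chromosome 5, 38845858 to 38945596, plus strand), the chain that binds oncostatin M with gp130, stood at 240 and 230 CPM in Doxy(-) against 233 and 242 CPM in Doxy(+). With a log2 fold change of 0.02 (SE 0.0394), it is the member whose difference was both near 0 and tightly measured. Its exons overlap those of RICTOR on the other strand, at a mean of 51.8 CPM. LIFR (ENSG00000113594.10, chromosome 5, 38474668 to 38608354, minus strand), the receptor chain for LIF, was at 14.3 and 12.7 CPM against 11.96 and 14.97 CPM, and its log2 fold change of -0.00079 had an SE of 0.144, so a modest difference in either direction was not detectable at this depth.

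IL11RA (ENSG00000137070.19, chromosome 9, 34652162 to 34661902, plus strand), the alpha receptor that IL-11 needs, was close to the limit of detection, with estimated counts of 6 and 19 in Doxy(-) against 17 and 12 in Doxy(+). That is 0.465 and 1.29 CPM against 1.32 and 0.894 CPM, where 3 counts correspond to 0.217 CPM in Doxy(-) and 0.228 CPM in Doxy(+). The log2 fold change of 0.30 has an SE of 0.557, and it was -0.23 without Doxy(-) 1 and 1.23 without Doxy(-) 2, so no direction can be read from it.

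**Figure D1:**
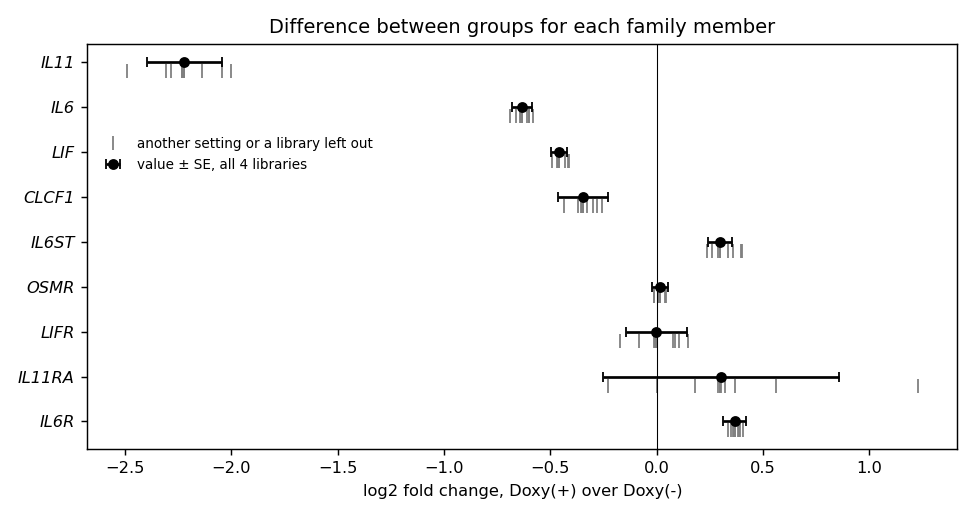
Log2 fold change of each family member, Doxy(+) over Doxy(-), from the fit on 4 libraries (black points, with bars of 1 SE) and under each alternative setting or with a library left out (grey ticks). The 4 cytokines lie to the left of 0, from -2.22 for IL11 to -0.35 for CLCF1, IL6ST and IL6R lie at 0.30 and 0.37, and only the ticks of OSMR, LIFR and IL11RA fall on both sides of 0.

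To set the members against each other, levels were compared per transcript length, as TPM (transcript abundance scaled to a sum of 1000000) summed over the transcripts of a gene. IL6 had the highest level in both groups, with 451 and 449 TPM in Doxy(-) and 305 and 289 TPM in Doxy(+). LIF came next, at 99.8 and 106 TPM and then 76.4 and 77.9 TPM, followed by OSMR, at 72.4 and 67.8 TPM and then 68.5 and 72.5 TPM. IL6ST was number 4, at 46.2 and 58.9 TPM in Doxy(-) and at 80.5 and 59.2 TPM in Doxy(+), where its range contained that of OSMR.

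The place of IL11 in this order was not the same in the groups. In Doxy(-) it was number 5 of 9, at 17.8 and 19.4 TPM, and overlapped IL6R at 16.1 and 20.1 TPM. In Doxy(+) it was number 7, at 3.19 and 4.38 TPM, below IL6R at 23.5 and 24.3 TPM and CLCF1 at 9.59 and 9.63 TPM, and overlapped LIFR at 2.88 and 3.93 TPM. IL11RA was last in both groups, between 1.04 and 1.97 TPM. Apart from the 3 overlaps named, neighbours in the order had separate ranges.

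**Figure D2:**
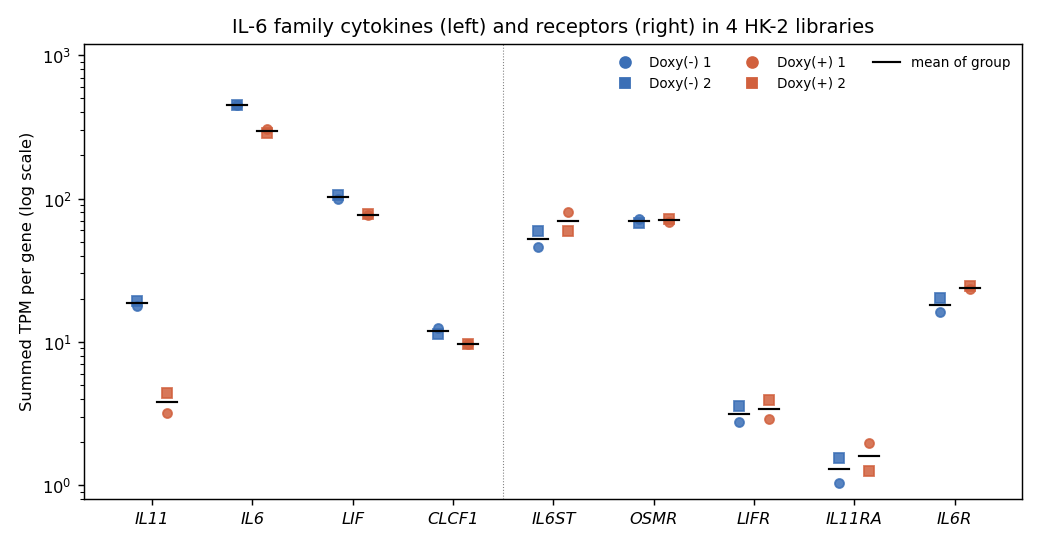
TPM summed per gene on a log axis for the 4 cytokines (left of the dotted line) and the 5 receptor chains (right), in Doxy(-) (blue) and Doxy(+) (orange), with circles for library 1, squares for library 2 and bars for group means. IL6 lies highest at 289 to 451 TPM, IL11 lies at 17.8 and 19.4 TPM in Doxy(-) and at 3.19 and 4.38 TPM in Doxy(+), and OSMR lies between 67.8 and 72.5 TPM in all 4 libraries.

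Next, the annotated transcripts of the members were compared, whose single values depend on the way reads common to several transcripts were split by the quantifier. For IL11 the difference was shared by its 3 leading transcripts. IL11-201, the longest at 2281 nt, was at 8.95 and 9.84 TPM in Doxy(-) and 1.92 and 2.33 TPM in Doxy(+). IL11-202 (1201 nt) was at 3.21 and 5.38 TPM against 0.50 and 1.27 TPM, and IL11-203 (650 nt) at 4.65 and 4.14 TPM against 0.765 and 0 TPM. In Doxy(+) IL11-202 rested on 4.81 and 12.8 estimated reads and IL11-203 on 3.68 and 0. Another transcript, IL11-204, overlapped between the groups, at 8.65 and 0 estimated reads in Doxy(-) against 0 and 6.66 in Doxy(+). All are part of the reads by which IL11 was chosen.

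IL6ST showed transcripts on both sides. IL6ST-204 (9057 nt) rested on 855 and 1096 reads by estimate in Doxy(-) against 1166 and 1346 in Doxy(+), and came to 10.6 and 11.9 TPM against 14.9 and 16.5 TPM. IL6ST-206 (3007 nt) was also higher in Doxy(+), at 18.2 and 16.1 TPM against 21.2 and 22.8 TPM. IL6ST-203 (2574 nt) went the other way, with 105 and 155 estimated reads against 41.2 and 5.25, or 4.72 and 6.06 TPM against 1.91 and 0.232 TPM. Short transcript models contributed to the wide spread of the IL6ST total in TPM. IL6ST-201, a coding model of 201 nt, was at 3.57 and 11.5 TPM in Doxy(-) against 17.7 and 2.94 TPM in Doxy(+). The retained-intron model IL6ST-208 lay at 0 to 14.4 TPM in single libraries. LIF was carried by LIF-201 and CLCF1 by CLCF1-201, each with over 95% of the estimated reads of its gene in every library.

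**Figure D3:**
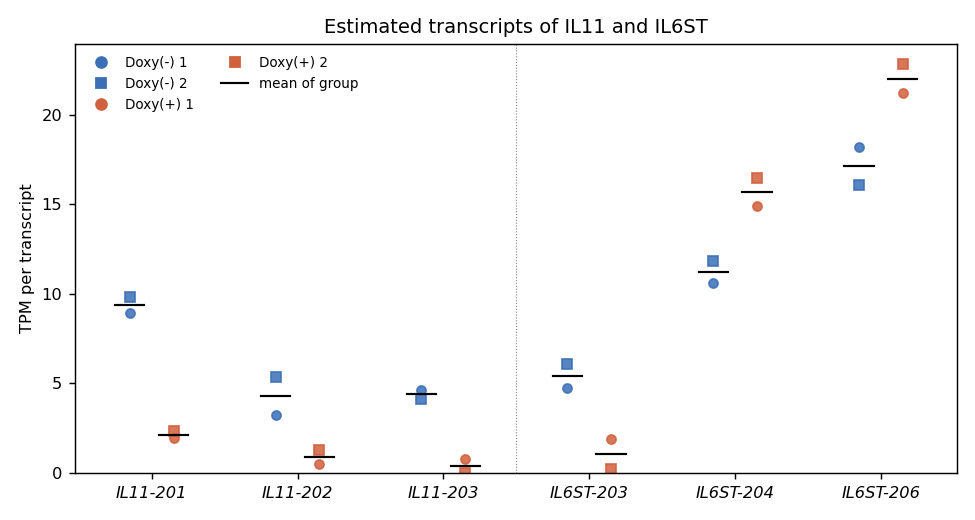
TPM of the 3 leading transcripts of IL11 (left of the dotted line) and of 3 coding transcripts of IL6ST (right), with Doxy(-) in blue, Doxy(+) in orange, circles for library 1, squares for library 2 and bars for group means. All 3 IL11 transcripts lie lower in Doxy(+), whereas IL6ST-204 and IL6ST-206 lie higher and IL6ST-203 lower.

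To see which genes had library values most like those of IL11, log2 CPM was centred on each gene's own mean, and the root mean square difference from IL11 over the 4 libraries was taken for 9609 genes that averaged 10 CPM or more. The nearest were THBS1 (0.225), SLC2A2 (0.225), F3 (0.346), SLCO2A1 (0.372) and VCAM1 (0.391), against a median of 1.11. Within the family IL6 ranked 142nd (0.813), LIF 301st (0.886) and CLCF1 741st (0.957). With 4 libraries in 2 groups this measure mostly reflects the size of the group difference. Position was also examined. Within 100 kb of a member lay 33 other tested genes, with a median log2 fold change of -0.11, and edgeR's quasi-likelihood test passed 1 lower and 1 higher at an adjusted p under 0.05, while 9.53% of all genes tested were lower and 9.76% higher. The lower one was UBE2S, a ubiquitin-conjugating enzyme gene 29.3 kb from IL11, at -0.23 (SE 0.0556, edgeR adjusted p 0.0349), and the higher one CORO1B, which encodes an actin-binding protein, 61.3 kb from CLCF1, at 0.33 (SE 0.0429, edgeR adjusted p 0.00466). The other 6 tested neighbours of IL11 lay between -0.22 and -0.04 and did not pass.

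The other genes of the pathway were then tested between the groups, as 66 genes in 5 lists. Of these, 65 had a summed count and 51 passed the low-count filter. By edgeR's quasi-likelihood test 8 were higher and 9 lower in Doxy(+) at an adjusted p under 0.05, while 9.76% of all genes tested were higher and 9.53% lower. ADAM17, JAK1, PIAS2, CCND1 and IRF1 have exons that overlap those of a tested gene on the other strand, and their values are less certain. The median log2 fold change was 0.05 over the 51, against 0.00062 over all genes. Without Doxy(+) 1 the counts were 3 and 5. When the log2 fold change also had to exceed 1 in size, 1 higher gene (LRG1) and 0 lower genes were left, against 1.5% and 0.479% of all genes.

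Among other cytokines and their partners, 2 of 7 passed the filter, and the known LIFR and OSMR ligands OSM, CNTF and CTF1 stayed under 1.6 CPM in every library. IL27 and IL31 had 0 counts in all 4 libraries, which allows up to 3 counts in each. EBI3, the subunit that IL-27 and IL-35 share, was measured at 20.2 and 21.3 CPM in Doxy(-) against 26.5 and 25.5 CPM in Doxy(+). It rose by a log2 fold change of 0.32 (SE of 0.0819, edgeR adjusted p 0.0414), a call that DESeq2 (0.338), the fit with no low-count filter (0.0536), the replicate block (0.0619) and each fit without a library did not give, with adjusted p-values from 0.0338 to 0.338 over the settings.

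Of the receptors and sheddases, 4 of 5 were tested, with 1 higher and 1 lower, against 9.76% and 9.53% of all genes tested. CNTFR did not pass the low-count filter, at 0 and 0 CPM in Doxy(-) against 0.155 and 0.0745 CPM in Doxy(+). ADAM17, the protease known to release soluble IL-6 receptor from the cell surface, rose from 101 and 103 CPM to 130 and 125 CPM (log2 fold change 0.32 with SE 0.0451, edgeR adjusted p 0.00576). ADAM10, a related protease, fell from 194.7 and 194.8 CPM to 162 and 164 CPM (log2 fold change -0.25 with SE 0.0348, edgeR adjusted p 0.00522). Without Doxy(+) 1 neither passed, at edgeR adjusted p-values of 0.0582 and 0.0574, within ranges over the settings of 0.00203 to 0.0582 for ADAM17 and 0.00157 to 0.141 for ADAM10. ADAM10 also did not pass with limma on TPM, at adjusted p-values of 0.136 and 0.141. IL31RA, which pairs with OSMR, and IL27RA, which pairs with gp130, were both lower in both Doxy(+) libraries and did not pass the test, at log2 fold changes of -1.37 (SE 0.456) and -0.61 (SE 0.208).

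Of the 13 kinases, STATs and adaptors 1 was higher, 1 was lower and 11 did not pass. Over all genes tested, 9.76% were higher and 9.53% lower. JAK1, the main kinase bound to gp130, fell from 722 and 734 CPM to 588 and 602 CPM (log2 fold change -0.29 with SE 0.0294, edgeR adjusted p 0.00182). With limma on TPM the adjusted p of JAK1 was 0.0590 and 0.0616, the highest of a range from 3.8e-09. The gene that overlaps JAK1 on the other strand is RAVER2. STAT3 itself, which was picked out after its values were seen, stood at 194 and 188 CPM against 205 and 206 CPM, and its log2 fold change of 0.11 (SE of 0.0366, edgeR adjusted p 0.0993) did not pass.

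Inhibitors of the pathway included 2 higher genes of 14 tested and 0 lower ones, against 9.76% and 9.53% of all genes tested. No SOCS gene passed. PTPN1, a phosphatase that acts on JAK kinases, rose from 156 and 152 CPM to 191 and 184 CPM (log2 fold change 0.28 with SE 0.0391, edgeR adjusted p 0.00541). PIAS2, of the family of STAT inhibitors with SUMO ligase activity, rose from 18.2 and 19.9 CPM to 28.9 and 26.4 CPM (log2 fold change 0.54 with SE 0.0934, edgeR adjusted p 0.0119). Neither passed without Doxy(+) 1, where the edgeR adjusted p-values were 0.0564 and 0.0683, the highest over the settings, whose lowest values were 0.00183 and 0.00525. SOCS3, the feedback inhibitor that STAT3 induces, was picked out after its values were seen and stood at 40.7 and 40.9 CPM in Doxy(-) against 38.7 and 39.5 CPM in Doxy(+). The fitted log2 fold change, -0.06 with an SE of 0.0566, did not pass (edgeR adjusted p 0.512).

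STAT3 target genes moved in both directions. Of 26 listed, 18 were tested, 3 were higher, 7 were lower and 8 did not pass, with a median log2 fold change of -0.11. The shares of all genes tested were 9.76% higher and 9.53% lower. The 8 left out by the filter were FOS and 7 genes of acute phase proteins, such as CRP and the fibrinogen chains FGA, FGB and FGG, which are mainly made in liver and lay under 1 CPM in every library. CCND1, which encodes cyclin D1, fell from 164 and 163 CPM to 88.6 and 93.6 CPM (log2 fold change -0.84 with SE 0.0449, edgeR adjusted p 0.000237). MYC, a growth-promoting transcription factor gene, fell from 213 and 237 CPM to 130 and 131 CPM (log2 fold change -0.78 with SE 0.0573, edgeR adjusted p 0.000615).

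IRF1, a transcription factor gene that interferons and STATs induce, fell from 49.96 and 46.3 CPM to 31.8 and 30.5 CPM (log2 fold change -0.62, edgeR adjusted p 0.00233), and VEGFA, the angiogenic growth factor gene, from 51.0 and 48.4 CPM to 33.5 and 35.01 CPM (log2 fold change -0.54, edgeR adjusted p 0.0028). In the other direction, LRG1, which encodes a secreted glycoprotein, rose from 2.33 and 2.93 CPM to 8.31 and 6.26 CPM (log2 fold change 1.46 with SE 0.242, edgeR adjusted p 0.0101). ICAM1, an adhesion molecule gene that NF-kB also drives, rose from 364 and 369 CPM to 446 and 433 CPM (log2 fold change 0.26 with SE 0.0316, edgeR adjusted p 0.00339). LRG1 did not pass without Doxy(+) 1 (edgeR adjusted p 0.0610, the highest of a range from 0.00196) or with limma on TPM (0.0599 and 0.0584), and VEGFA did not pass with limma on TPM (0.106 and 0.105, the highest of a range from 0.000447). The other 4 that passed, named after their values were seen, were BCL3 (-0.58), IL4R (-0.30) and NNMT (-0.23) on the lower side and CEBPB (0.67) on the higher side. The members of this list thus differed in direction, and the part of STAT3 in these differences was not tested.

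**Figure D4:**
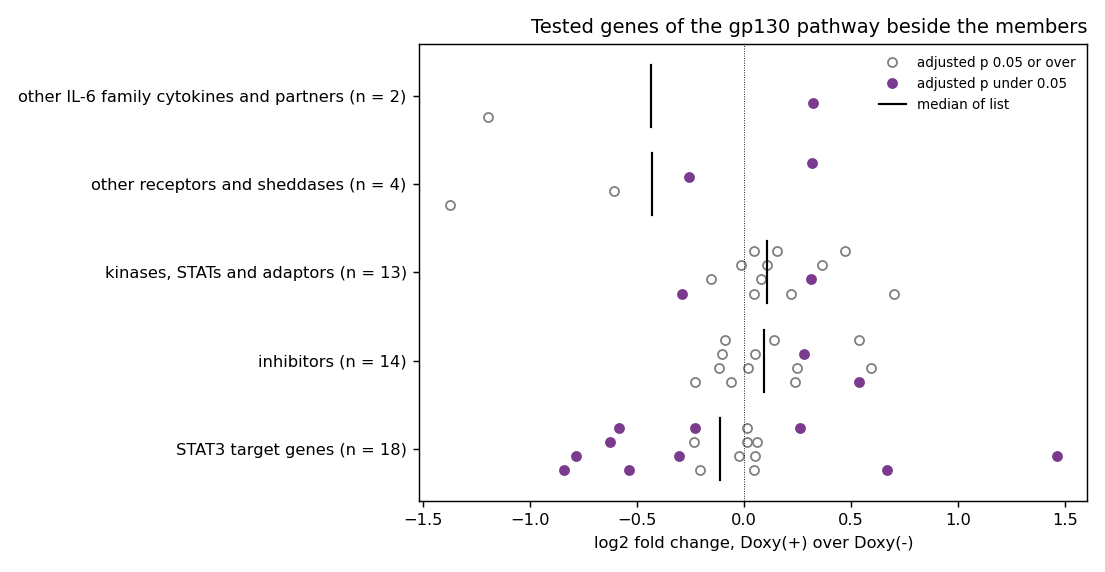
Log2 fold change, Doxy(+) over Doxy(-), of the 51 tested genes in the 5 pathway lists, with filled points for an edgeR adjusted p under 0.05, open points for the rest and a bar for each list's median. In the STAT3 target list 3 filled points lie to the right of 0 and 7 to the left, and among the kinases, STATs and adaptors 11 of 13 points are open. The lists were not tested against each other, and of all genes tested 9.76% passed as higher and 9.53% as lower.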

How the data were processed

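RNA of HK-2 cells was sequenced in 4 libraries after a stranded poly(A) library preparation. The study's methods and the submitters' processing notes name Trim Galore 0.6.6, cutadapt 2.5 and STAR 2.7.9a on hg38, and RSEM. The deposited tables instead have kallisto's columns over 180253 Ensembl transcripts. The quantifier's version, the annotation release and the strand setting are not given in the sources used here. The deposited estimated counts are unnormalized expected counts per transcript, and the deposited TPM values sum to 1000000 per library.

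Counts were summed per gene through GENCODE release 44 on hg38, which matched 83.6% of the identifiers. Unmatched identifiers held 9.66% to 9.89% of each library and were left out. Sums were rounded and tested with edgeR 4.0.16 (R 4.3.3) by glmQLFit and glmQLFTest, with TMM scaling, filterByExpr and group as the only term. Benjamini-Hochberg adjustment ran over 13569 genes. SEs are those implied by the F statistic. CPM values use TMM-scaled totals. Limits from counts cover counting error only. The procedure was tested on simulated data.

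The members, the lists, the tests and the rule for naming genes were chosen with earlier results of these data known. By that rule the text names the 9 members, TFE3, in each pathway list up to 6 genes with an adjusted p under 0.05 (by smallest p) or, if fewer than 2 passed, the most abundant up to 2, the 5 genes most like IL11, and the neighbours that passed. Other names were picked after their values were seen. Alternatives were RLE factors, other filters, DESeq2 1.42.0, a replicate block, limma 3.58.1 on log2(TPM + 1) and log2(TPM + 0.1) for genes with a mean TPM of at least 1, each library left out, and unmatched copies of a matched transcript added to its gene. SOCS7 had no matched transcript and was not analysed here. Some genes that the rule would name, or that the lists hold, are counted but not reported singly here.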

Additional observations from a re-analysis of the deposited data

How the results depend on the processing

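The log2 fold change of IL11 lay between -2.49 and -2.00 when a library was left out. It was negative under all alternatives, but these reuse the libraries by which IL11 was chosen, so its sign is no further support. The number of pathway genes passing ranged from 3 to 10 for higher and from 5 to 9 for lower genes in those fits, with both lowest values without Doxy(+) 1, where a group is left with 1 library that is assumed to vary like the other group. With limma, log2(TPM + 1) and log2(TPM + 0.1) each passed 3 lower genes in place of 9, and these 3 were all part of the 9. The cause was not tested. With the fold change limit 1 higher and 0 lower genes remained. Under the other settings the counts stayed within 1.5 times of 8 and 9. The samples of a number did not deviate together (correlation of -0.015 over genes), and the replicate block gave 8 higher and 10 lower genes and -2.23 for IL11, and EBI3 did not pass in it (edgeR adjusted p 0.0619, within a range of 0.0338 to 0.338). With 2 libraries per group, small differences in genes with few reads, such as IL11RA and LIFR, could not be resolved.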
